A study of Mus musculus with 12 samples.

Results

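Photoreceptors recycle the vitamin A-derived chromophore of their visual pigments, and 7 genes of this retinoid handling were followed here in mouse rods: the carrier gene Rbp3, the dehydrogenase genes Rdh12, Rdh8, Rdh11 and Dhrs3, the saturase gene Retsat, and the transporter gene Abca4. They were chosen by name, and all 7 were found by symbol among the 52962 genes of the deposited gene table. RNA was measured in 12 libraries in 4 groups of 3, each library made from 50 to 100 rods. The retinas had been electroporated, and at postnatal day 8 intact GFP-positive rods were collected by hand after papain treatment. Total RNA was made into strand-specific libraries. The groups were a short hairpin RNA against mouse Csnk2a1 (shRNA mCsnk2a1), its control hairpin (shRNA Control), the vector pcDNA4c with mouse Csnk2a1 (pcDNA4c mCsnk2a1), and pcDNA4c as its control (pcDNA4c Control). Csnk2a1 encodes the alpha catalytic subunit of the protein kinase CK2, and the series concerns the action of CK2 on genes driven by NRL, which sets rod fate. Electroporation reaches only some cells of a retina, and strain, sex and the promoters of the constructs were not named in the labels.

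Light converts the 11-cis-retinal bound to opsin into all-trans-retinal, which must leave the disc membrane and be reduced to retinol before it returns to the pigment epithelium to be rebuilt. ABCA4 moves retinal conjugates across the disc membrane, and RDH8 in the outer segment and RDH12 in the inner segment reduce retinal to retinol. RBP3, also called interphotoreceptor retinoid-binding protein, binds retinoids in the space between photoreceptors and pigment epithelium. RDH11, DHRS3 and RETSAT act on retinoids in many tissues.

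Summed estimated counts per library ran from 1609099 to 2017899 in the 6 control libraries and from 2296158 to 3567252 in the 6 libraries of the Csnk2a1 groups, so the latter were deeper. Mitochondrial transcripts held 7.31% to 8.69% of the counts in the control libraries and 9.54% to 12.8% in the others. Levels are given in CPM, counts as a share of the library total, with TMM scaling between libraries. Csnk2a1 stood at 65.5, 56.0 and 8.33 CPM in the shRNA Control libraries, and the shRNA mCsnk2a1 libraries had 11.8, 21.7 and 35.3 CPM. The pcDNA4c Control libraries had 84.8, 24.5 and 27.7 CPM, and those of pcDNA4c mCsnk2a1 had 48.8, 142 and 119 CPM, where transcripts of the plasmid cannot be told from those of the gene. The groups overlapped in both arms and differed by -0.92 (SE 0.88, adjusted p in edgeR 0.905) and 1.18 (SE 0.88, adjusted p in edgeR 0.800) on the log2 scale, so the targeted gene did not separate either pair of groups beyond the spread between libraries. All 11 rod markers on a list were detected in each group, and their summed level was 4591 to 6370 CPM for shRNA Control, 9842 to 11838 for shRNA mCsnk2a1, 4442 to 5862 for pcDNA4c Control and 4087 to 9292 for pcDNA4c mCsnk2a1. The 13 microglia and macrophage markers summed to 2671 to 3209 CPM in pcDNA4c Control and to 9.94 to 91.1 CPM in the other groups, where 5 to 7 of the 13 were at 0. In pools of cells, fewer cells of a type and less RNA per cell cannot be told apart. The labels speak of independent RNA samples and do not tie them to separate animals, so the tests measure only how these libraries spread, which may be technical.

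By the group mean per transcript length, Rbp3 stood highest of the 7 genes and Retsat lowest in each of the 4 groups. In TPM, a level per transcript length, here summed over the transcripts of a gene, Rbp3 had a mean of 93.6 over the 12 libraries, above 98.7% of the 39127 genes with any TPM. Rdh12 at 34.7 and Abca4 at 32.3 TPM followed, above 96.3% and 95.9% of those genes. Rdh8 at 14.1 and Dhrs3 at 12.1 TPM lay in between, and Rdh11 stood at 4.36 and Retsat at 1.16 TPM. In summed TPM the order of neighbours was resolved best in pcDNA4c Control. There Rbp3 (51.8 to 76.0 TPM), Abca4 (27.6 to 44.2), Rdh12 (14.6 to 22.9) and Dhrs3 (9.20 to 13.1) did not overlap each other, while Dhrs3 overlapped Rdh8 (4.32 to 14.2). In shRNA Control the ranges of Rbp3 and Abca4 and those of Abca4 and Rdh12 overlapped, and Rdh12 (34.0 to 39.7 TPM) stood clear of the next gene, Rdh8 (4.68 to 21.8). In pcDNA4c mCsnk2a1, Rbp3 at 99.4 to 178 TPM stood clear of Rdh12 at 29.9 to 37.2, and Dhrs3 (2.49 to 12.7) stood clear of Retsat (0 to 0.934). In shRNA mCsnk2a1 each of the 5 highest genes overlapped the next of them, and the first break came between Rdh8 (13.6 to 25.7 TPM) and Rdh11 (1.42 to 10.1). Retsat overlapped Rdh11 in shRNA Control, shRNA mCsnk2a1 and pcDNA4c Control. Single libraries broke the order of the means: in shRNA Control 3, Retsat (3.40 TPM) was above Rdh11 (1.80), and Abca4 (82.6) was above Rbp3 (62.2). Over coding transcripts alone the order changed. The pcDNA4c Control means were then 65.3 TPM for Rbp3, 10.2 for Dhrs3 and for Rdh8, 8.31 for Abca4 and 4.29 for Rdh12. These ranges overlapped, apart from that of Rbp3. Coding means over the 12 libraries were 17.9 TPM for Rdh12, 14.1 for Rdh8, 11.1 for Dhrs3 and 10.7 for Abca4.

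**Figure D1:**
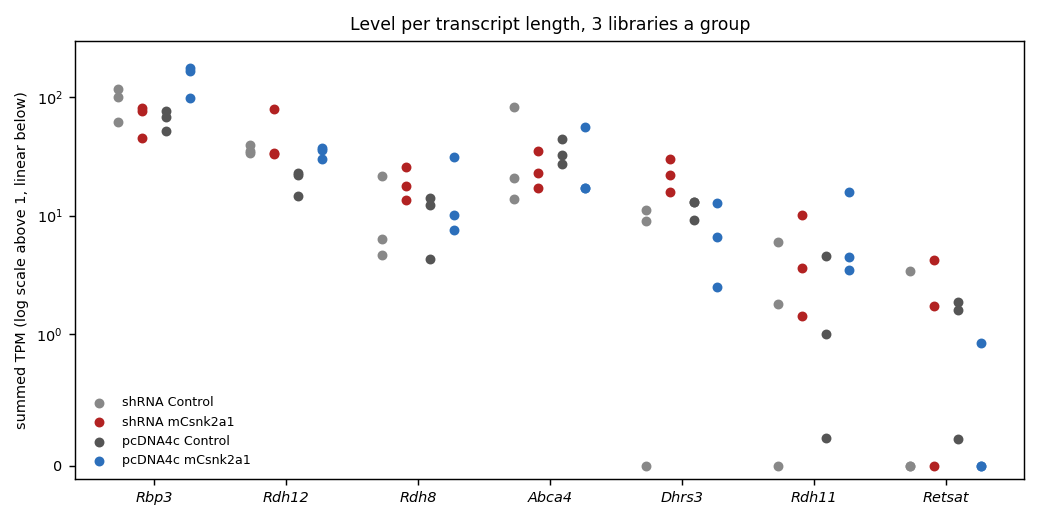
Summed TPM of each retinoid cycle gene (log scale above 1, linear below) in 12 libraries, with 1 point a library, coloured by group. Rbp3 reaches the highest level, with points between 44.9 and 178 TPM, and Retsat is listed at 0 in 5 libraries.

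All 7 genes had entries among the RefSeq promoters (GRCm38.p6). The 250 bases before each annotated start were searched on both strands for the core TAATCC of sites bound by CRX, the homeobox factor of photoreceptors, and for the core TGCTGA of sites bound by NRL; the letters of the cores do not overlap each other. Over all 32851 RefSeq windows of this length, 6.25% held the CRX core, 16.1% held the NRL core and 0.962% held both. The Rbp3 window held both cores, the Rdh12 window the NRL core and the Abca4 window the CRX core, and these letters are not in the windows searched for Rdh8, Rdh11, Dhrs3 and Retsat. The 3 windows with a core are shown because the series concerned NRL-driven expression. They run 5′ to 3′ on the plus strand, which is the strand of each of these genes, and capitals mark the matches, which describe letters and not bound sites.

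Rbp3, chr14:33953753-33954002: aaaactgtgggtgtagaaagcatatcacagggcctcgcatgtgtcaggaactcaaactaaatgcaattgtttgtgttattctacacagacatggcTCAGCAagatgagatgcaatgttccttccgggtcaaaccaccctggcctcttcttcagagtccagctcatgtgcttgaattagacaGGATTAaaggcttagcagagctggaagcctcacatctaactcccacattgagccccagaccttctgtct
Rdh12, chr12:79208663-79208912: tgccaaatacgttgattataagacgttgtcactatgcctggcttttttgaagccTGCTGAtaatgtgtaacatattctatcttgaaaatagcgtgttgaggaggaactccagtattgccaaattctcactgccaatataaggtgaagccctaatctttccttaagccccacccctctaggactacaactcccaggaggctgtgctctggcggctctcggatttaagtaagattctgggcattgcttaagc
Abca4, chr3:122044210-122044459: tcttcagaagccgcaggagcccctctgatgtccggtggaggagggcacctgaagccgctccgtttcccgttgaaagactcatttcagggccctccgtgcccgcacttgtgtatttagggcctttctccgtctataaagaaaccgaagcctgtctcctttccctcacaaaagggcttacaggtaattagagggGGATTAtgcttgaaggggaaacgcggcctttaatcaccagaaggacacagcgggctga

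In Rbp3 the CRX core, on the opposite strand and so printed as GGATTA, began 69 bases before the start, and the NRL core, printed as TCAGCA, began 155 bases before it. The NRL core of Rdh12 began 196 bases before the start, and the CRX core of Abca4, on the opposite strand, 58 bases before it. These starts are those of the RefSeq entries. The Abca4 window ends at 122044459, beyond the gene start of 122044443 given below, so its last bases lie within the gene by that annotation.

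Rbp3, the extracellular retinoid carrier (ENSMUSG00000041534, GRCm38 chromosome 14, 33954003 to 33964216), had a mean of 1598 CPM in pcDNA4c mCsnk2a1 and of 805 to 902 CPM in the other 3 groups. Its single listed transcript, Rbp3-201, has 5295 nucleotides in 4 exons, 3702 of them coding. The shRNA Control libraries had 1058, 894 and 590 CPM, and the shRNA mCsnk2a1 libraries had 563, 933 and 918 CPM. These ranges overlapped, and the log2 difference was -0.07 (SE 0.33, 95% interval -0.77 to 0.62, adjusted p in edgeR 1). Rbp3 stood at 958, 1067 and 682 CPM with pcDNA4c Control, and the pcDNA4c mCsnk2a1 libraries had 1036, 1934 and 1822 CPM. A pair of the vector libraries stood well above the controls, and pcDNA4c mCsnk2a1 1 lay within their range. The difference was 0.82 (SE 0.33, interval 0.13 to 1.52), with an unadjusted p of 0.0228 and an adjusted p of 0.568 in edgeR, so it did not pass. In coding-transcript TPM the 3 vector libraries at 99.4, 178 and 168 TPM all stood above the controls at 68.2, 76.0 and 51.8 TPM. The exact permutation p was 0.1, the smallest that 3 against 3 allows, and 0.7 after Benjamini-Hochberg adjustment over 21 comparisons. On this coding-transcript TPM scale 7.75% of genes had the 3 vector libraries above the 3 controls and 7.71% had them below. The overexpression effect minus the knockdown effect was 0.90 for Rbp3 (SE 0.47, interval -0.08 to 1.88, adjusted p in edgeR 0.633), so a difference between the arms was not resolved.

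Rdh12, the inner segment reductase (ENSMUSG00000021123, chromosome 12, 79208914 to 79222665), had 142, 119 and 131 CPM in the shRNA Control libraries, against 167, 360 and 155 CPM with shRNA mCsnk2a1. Each knockdown library was above each control library, and shRNA mCsnk2a1 2 stood far above the rest. On the log2 scale they differed by 0.80 (SE 0.5, interval -0.24 to 1.84, adjusted p in edgeR 0.711), and by 0.30 without that library. The separation depended on the scaling: with library size alone, and in summed TPM, the groups overlapped, and in log2(TPM + 1) they differed by 0.30 (exact permutation p = 1). The pcDNA4c Control libraries had 123, 80.8 and 119 CPM and the pcDNA4c mCsnk2a1 libraries 123, 160 and 152 CPM. The lowest of the latter and the highest of the former met at 123 CPM, and the difference was 0.43 (SE 0.5, interval -0.61 to 1.47, adjusted p in edgeR 0.945). In summed TPM the pcDNA4c mCsnk2a1 libraries, at 29.9 to 37.2, stood clear of the pcDNA4c Control libraries, at 14.6 to 22.9. The difference was 0.77 in log2(TPM + 1) (exact permutation p = 0.1, and 0.525 after adjustment over 21 comparisons). The share of all genes with that order in summed TPM was not computed. With library size alone the groups overlapped, at 0.30 in log2(CPM + 1) (exact permutation p = 0.3).

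Much of the Rdh12 TPM was assigned to a transcript without a coding sequence. How certain the assignment of reads to transcripts was could not be tested on the deposited values, here or for the other genes. Rdh12-204, annotated as a retained intron (2753 nucleotides), held 48.3% of the Rdh12 TPM summed over the 12 libraries and was above 0 in all of them, at 5.78 to 25.2 TPM. The main coding transcript Rdh12-201 (1678 nucleotides, 948 coding, 7 exons) held 43.3% and was listed at 0 in 2 libraries. Summed over the coding transcripts, Rdh12 had 24.3, 11.4 and 16.8 TPM with shRNA Control and 19.2, 58.8 and 18.8 TPM with shRNA mCsnk2a1. With pcDNA4c mCsnk2a1 it had 4.71, 18.5 and 29.7 TPM. With pcDNA4c Control it had 7.42, 5.46 and 0 TPM, below every shRNA Control library (exact permutation p = 0.1; 0.7 after Benjamini-Hochberg adjustment over 21 comparisons). After adjustment this difference between the control groups in coding Rdh12 TPM was not resolved. The same order was found for 9.94% of genes and the reverse for 4.64%. In shRNA Control 1, 15.7 of the 24.3 TPM were assigned to Rdh12-203, a coding transcript of 558 nucleotides. Neither Csnk2a1 group was clear of its own control. Coding transcripts made up 48.4% of Rdh12 TPM with shRNA Control, 66.5% with shRNA mCsnk2a1, 21.6% with pcDNA4c Control and 51.6% with pcDNA4c mCsnk2a1, shares that were not tested.

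**Figure D2:**
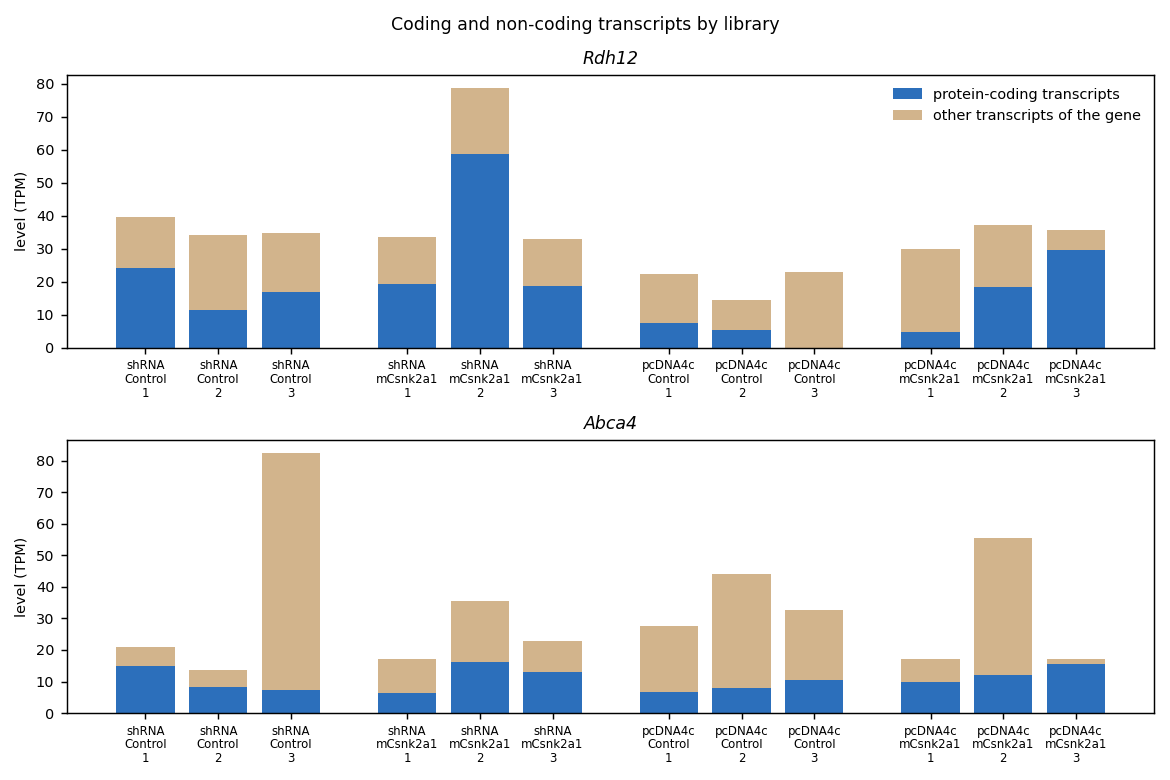
TPM of protein-coding transcripts (blue) and of the other transcripts (tan) of Rdh12 and Abca4, 1 bar a library. Coding TPM of Abca4 stays between 6.44 and 16.2, while shRNA Control 3 carries 75.3 TPM of non-coding Abca4 transcripts.

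Rdh8, the outer segment reductase (ENSMUSG00000053773, chromosome 9, 20818503 to 20826117, with a single listed transcript of 1405 nucleotides, 951 coding), had 10.2, 45.5 and 14.4 CPM with shRNA Control, against 52.6, 37.1 and 71.9 CPM with shRNA mCsnk2a1. A pair of control libraries were lower than every knockdown library, and shRNA Control 2 lay among them. They differed by 1.20 on the log2 scale (SE 0.96, interval -0.80 to 3.21, adjusted p in edgeR 0.842). In the vector arm the pcDNA4c Control libraries had 14.5, 47.0 and 38 CPM, and those of pcDNA4c mCsnk2a1 had 24.8, 19.3 and 80.2 CPM. The ranges crossed, and the difference of 0.32 (SE 0.94, adjusted p in edgeR 1) turned to -0.56 without pcDNA4c mCsnk2a1 3, the library with the highest Rdh8 of the 12.

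Rdh11 (ENSMUSG00000066441, chromosome 12, 79174337 to 79192293), a broadly expressed retinal reductase, is the neighbour of Rdh12 on the opposite strand, 16621 bases away. No run of 31 bases is shared by their annotated transcripts. The shRNA Control libraries had 0, 24.5 and 7.78 CPM, and those with shRNA mCsnk2a1 had 21, 53.3 and 7.68 CPM. The pcDNA4c Control libraries had 1.45, 6.37 and 27.7 CPM, and those of pcDNA4c mCsnk2a1 had 21.4, 17.2 and 77.9 CPM. The groups overlapped in both arms. The log2 difference was 1.34 with knockdown (SE 1.5, interval -1.79 to 4.48, adjusted p in edgeR 0.943) and 1.71 with overexpression (SE 1.51, interval -1.45 to 4.88, adjusted p in edgeR 0.873). The size rested on single libraries: the knockdown difference was 0.41 without shRNA mCsnk2a1 2 and 2.79 without shRNA Control 2, and the overexpression difference was 0.73 without pcDNA4c mCsnk2a1 3 and 3.32 without pcDNA4c Control 3. In pcDNA4c mCsnk2a1 3, which had the highest Rdh11 as well as the highest Rdh8, 9.95 of 15.7 TPM were assigned to Rdh11-202. This transcript is annotated for nonsense-mediated decay and was listed above 0 in that library alone.

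Dhrs3 (ENSMUSG00000066026, chromosome 4, 144892827 to 144928209), which encodes a reductase of all-trans-retinal found in cone outer segments and in many other tissues, showed the largest knockdown difference of the 7 genes. The shRNA Control libraries had 19.3, 23.3 and 0 CPM, and those with shRNA mCsnk2a1 had 46.4, 59.1 and 83.5 CPM. Each knockdown library was above each control library, also in coding TPM (0 to 11.2 against 13.8 to 24.4), where 3.2% of genes had that order and 7.29% the reverse. The edgeR estimate was 2.14 on the log2 scale (SE 1.21, interval -0.39 to 4.68, adjusted p 0.651). Without shRNA Control 3, which held no count, where 3 counts would be 1.67 CPM, it was 1.54. The pcDNA4c Control libraries had 30.4, 42.6 and 40.1 CPM, and those of pcDNA4c mCsnk2a1 had 16.3, 6.44 and 32.2 CPM. These ranges met, and the difference was -1.04 (SE 1.17, interval -3.49 to 1.41, adjusted p in edgeR 0.940). All 3 pcDNA4c Control libraries were also above the 3 shRNA Control libraries in CPM, a log2 difference of shRNA Control minus pcDNA4c Control of -1.40 (SE 1.19, adjusted p in edgeR 1), while in TPM these groups overlapped. The overexpression effect minus the knockdown effect was -3.18 (SE 1.68, interval -6.70 to 0.33, adjusted p in edgeR 0.641), so a difference between the arms was not resolved. The 11 cone markers summed to 321 to 346 CPM for shRNA Control, 434 to 649 for shRNA mCsnk2a1, from 392 up to 487 for pcDNA4c Control and 285 to 389 for pcDNA4c mCsnk2a1, with the cone opsin gene Opn1sw at 0 throughout shRNA Control and pcDNA4c mCsnk2a1 and Opn1mw at 0 throughout pcDNA4c mCsnk2a1, and their part in the Dhrs3 levels was not tested.

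Retsat (ENSMUSG00000056666, chromosome 6, 72598475 to 72608425), the retinol saturase, was scarcely detected. It had no count in 5 of the 12 libraries, where 3 counts would be 0.904 to 1.75 CPM. The shRNA Control libraries had 0, 0 and 9.45 CPM, and those with shRNA mCsnk2a1 had 6.25, 0 and 14.7 CPM. The pcDNA4c Control libraries had 7.71, 6.37 and 0.542 CPM, the last from 1 count, and those of pcDNA4c mCsnk2a1 had 0, 3.07 and 0 CPM. Each group but pcDNA4c Control held at least 1 library without a count. Its intervals, -4.31 to 6.58 for the knockdown and -7.77 to 3.40 for the overexpression difference on the log2 scale, left changes of either sign possible at this depth.

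Abca4, the retinoid flippase of the disc rim (ENSMUSG00000028125, chromosome 3, 122044443 to 122180123), had 125, 81.1 and 518 CPM with shRNA Control, against 143, 271 and 181 CPM with shRNA mCsnk2a1. With pcDNA4c Control it had 257, 411 and 285 CPM, and the libraries of pcDNA4c mCsnk2a1 had 119, 402 and 123 CPM. Single libraries, shRNA Control 3 and pcDNA4c mCsnk2a1 2, stood far above the others of their groups. With knockdown Abca4 differed by -0.28 on the log2 scale (SE 0.63, interval -1.60 to 1.03, adjusted p in edgeR 1), which turned to 0.92 without shRNA Control 3. With overexpression it differed by -0.57 (SE 0.63, interval -1.88 to 0.75, adjusted p in edgeR 0.937).

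The high Abca4 libraries were high in TPM assigned to transcripts without a coding sequence, at 75.3 of 82.6 TPM in shRNA Control 3 and 43.6 of 55.6 TPM in pcDNA4c mCsnk2a1 2. The full-length coding transcript Abca4-201 (7263 nucleotides, 6930 coding, 50 exons) held 29.8% of the Abca4 TPM over the 12 libraries, and the retained intron Abca4-204, of 531 nucleotides, held 31.3%. Abca4-204 was listed at 52.7 TPM in shRNA Control 3, at 23.2 TPM in pcDNA4c mCsnk2a1 2 and at 0 to 17.8 TPM in the other libraries. Coding transcripts of Abca4 gave 15, 8.16 and 7.24 TPM with shRNA Control and 6.44, 16.2 and 13.1 TPM with shRNA mCsnk2a1. They gave 6.71, 7.79 and 10.4 TPM with pcDNA4c Control and 9.84, 12.1 and 15.5 TPM with pcDNA4c mCsnk2a1. In log2(coding TPM + 1) the difference was 0.19 with knockdown (exact permutation p = 0.9), against 0.14 in log2(CPM + 1) and -0.28 in edgeR. With overexpression it was 0.53 (exact permutation p = 0.2), against -0.78 in log2(CPM + 1) and -0.57 in edgeR. The sign in coding TPM thus differed from edgeR in both arms, and from log2(CPM + 1) only with overexpression. The groups overlapped in each arm in coding TPM and in CPM. The predicted genes Gm43158 and Gm43157 overlap Abca4 on the opposite strand, at means of 1.42 and 0.628 CPM.

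**Figure D3:**
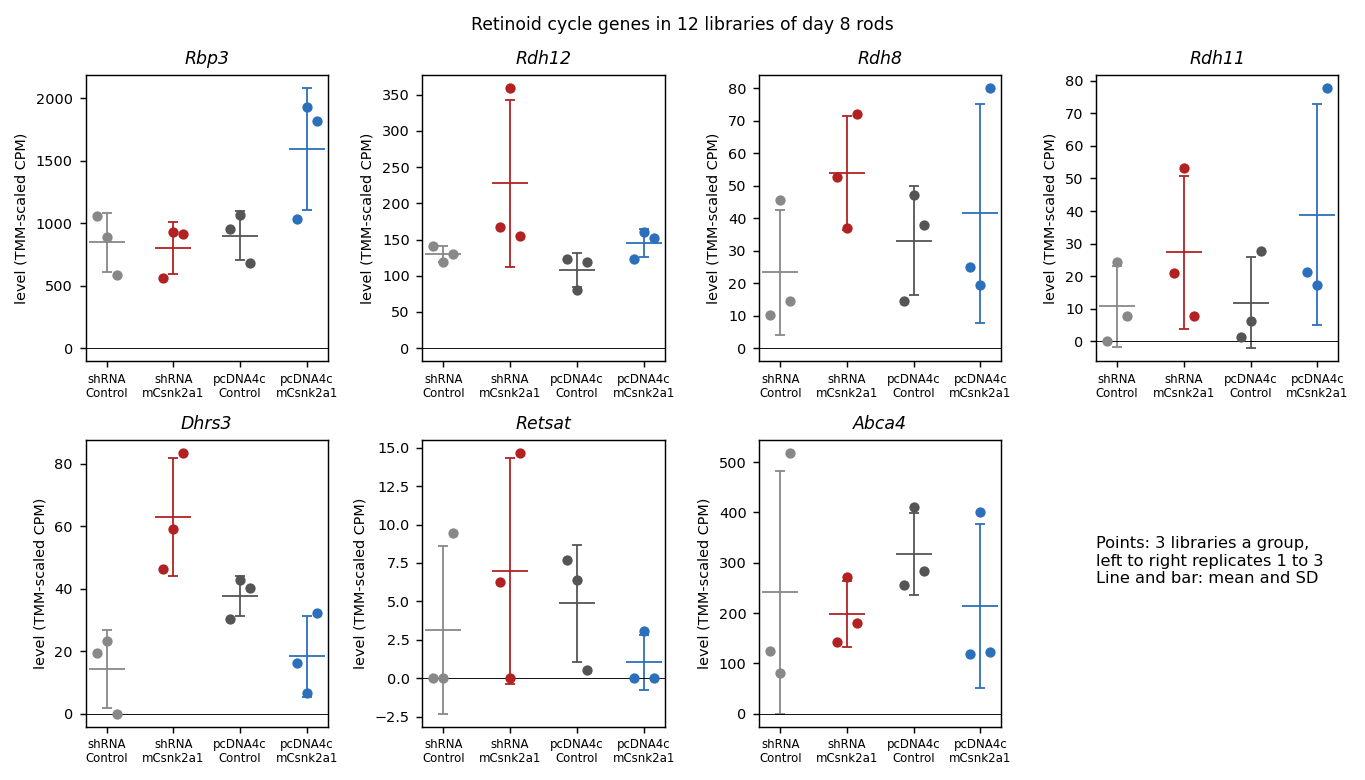
Level in TMM-scaled CPM of the 7 retinoid cycle genes in 12 libraries, 1 point a library, with the mean and SD of each group of 3. Rdh12 and Dhrs3 have all shRNA mCsnk2a1 points above the shRNA Control points, and Abca4 in shRNA Control is spread from 81.1 to 518 CPM.

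Tested over all 20267 genes that passed the low-count filter, which included all 7, none of the retinoid cycle genes passed an edgeR adjusted p of 0.05 in any comparison. With knockdown 0 of 7 passed, where 0% of all genes did; 0 of 7 had an unadjusted p under 0.05 (8.33% of genes), and DESeq2 (1.1% of genes called) and limma voom (0.00987%) each called 0 of 7, though by limma voom the Dhrs3 estimate was 3.6, with an unadjusted p of 0.0214 and an adjusted p of 0.576. With overexpression 0 of 7 passed against 0.0987% of genes, and 1 of 7, Rbp3, had an unadjusted p under 0.05, against 8.72% of genes in either direction and 2.15% that were higher. DESeq2 (1.47% of genes called) and limma voom (0.183%) again called 0. Between shRNA Control and pcDNA4c Control 0 of 7 passed (0.0691% of genes) and 0 of 7 had an unadjusted p under 0.05 (4.21%), and DESeq2 and limma voom called 0 of 7, against 0.416% and 0.0592% of genes. For the overexpression effect minus the knockdown effect 0 of 7 passed (0.0197% of genes), with 0 of 7 at an unadjusted p under 0.05 (8.34%), and DESeq2 and limma voom called 0 of 7, against 1.21% and 0.00493% of genes. In this last contrast Dhrs3 had an unadjusted p of 0.0470 by DESeq2 and of 0.0134 by limma voom, and Rbp3 had 0.0425 by limma voom. DESeq2 gave no adjusted p for Retsat in the first 3 of these comparisons.

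Rdh12 and Dhrs3, 2 of the 7, had all knockdown libraries above all shRNA Control libraries, where 5.61% of genes had, and none had them below (6.68% of genes). With overexpression 1 of 7, Rdh12, had all vector libraries above the controls by the margin given above (3.73% of genes), and none had them below (11.8%). The overexpression orders moved with the scaling. With library size alone none of the 7 was above and Dhrs3 was below. With RLE size factors and in summed TPM both Rdh12 and Rbp3 were above. The share of all genes with such orders was not computed on these scales, so they are given as description only. Between the controls, with TMM scaling, 1 of 7, Dhrs3, was lower in shRNA Control (8.56% of genes), and none was higher (5.13%). Rdh12 was higher in shRNA Control with RLE size factors, by 0.42 in log2(CPM + 1), and in summed TPM, by 0.85 in log2(TPM + 1). The share of all genes with that order was not computed on these scales either. Such an order gives an exact permutation p of 0.1, the smallest possible, and with TMM scaling 0.525 after Benjamini-Hochberg adjustment over 21 comparisons. The knockdown differences were above 0 for 5 of 7 and had a median of 1.13, where 48.9% of all genes were above 0 and the median was -0.03. The overexpression differences were above 0 for 4 of 7 with a median of 0.32, against 45.1% of genes and a median of -0.16. The arms use separate control groups. Depth and the mitochondrial share differed between the groups of both arms, as given above. Summed rod markers were higher in shRNA mCsnk2a1 than in shRNA Control, without overlap. Also without overlap, Müller glia sums were higher and microglia sums lower in the Csnk2a1 group of each arm. Cone sums were higher with knockdown and lower with overexpression, again without overlap. Single markers did not all follow. With knockdown 7 tested cone markers were above 0 and 3 below, and 8 Müller glia markers above and 3 below. Microglia sums in the shRNA arm were low, at 57.7 to 77.8 CPM for shRNA Control and 9.94 to 37.2 for shRNA mCsnk2a1. The 11 bipolar cell markers summed to 650 to 894 CPM for shRNA Control and 932 to 2197 for shRNA mCsnk2a1. They summed to 364 to 530 CPM for pcDNA4c Control and 1115 to 1308 for pcDNA4c mCsnk2a1. The part of depth, mitochondrial share and markers in these differences was not tested. Of the 19 rod phototransduction genes on a list, 18 were tested, and all of them were above 0 with knockdown (median 1.07) and 14 with overexpression (median 0.39), with 0 past the threshold in edgeR in either arm and 10 and 3 at an unadjusted p under 0.05, where 8.33% and 8.72% of all genes had such a p. The knockdown estimate of Rbp3, the most abundant of the 7 genes, was -0.07, and its difference from the phototransduction genes was not tested.

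**Figure D4:**
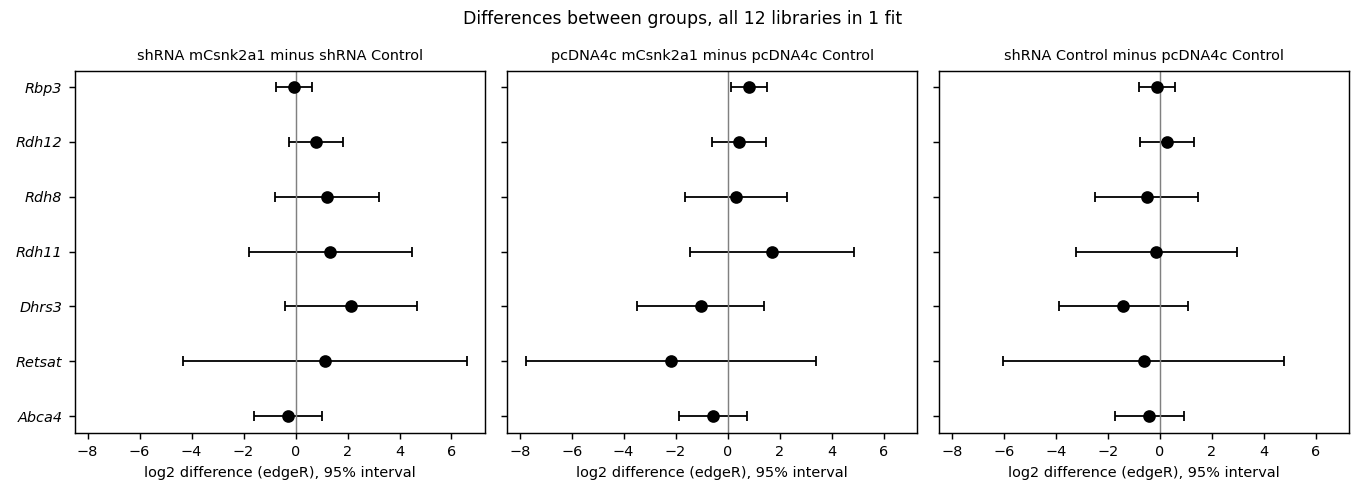
Log2 differences from edgeR with 95% intervals for the 7 retinoid cycle genes in 3 comparisons, all 12 libraries in 1 fit. Among the 21 intervals only that of Rbp3 with overexpression, 0.13 to 1.52, leaves out 0 before adjustment, and those of Retsat are the widest.

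The other retinoid genes, from 3 fixed lists, were mostly scarce and none passed in either arm. Of 12 visual cycle genes of pigment epithelium and Müller glia, 10 were tested, with 4 above and 6 below 0 with knockdown and 7 above and 3 below with overexpression; 0 passed in edgeR, and 2 and 1 had an unadjusted p under 0.05 (8.33% and 8.72% of all genes). The isomerase gene Rpe65, which defines pigment epithelium, was listed above 0 in 3 of 12 libraries and averaged 0.926 CPM, and the 12 pigment epithelium markers summed to 45.1 to 145 CPM over the libraries. Among the highest of the list were Rlbp1, the retinaldehyde-binding protein of Müller glia (77.2 CPM over the 12 libraries), and the retinol dehydrogenase Rdh10 (28.8 CPM). Rlbp1 averaged 77.5 ± 31.6 CPM with shRNA Control and 137 ± 39.3 CPM with shRNA mCsnk2a1 (SD, n = 3), with an edgeR estimate of 0.83 in log2 units (SE 0.76; adjusted p 0.893). Müller glia markers, 11 in all, summed to 483 to 764 CPM with shRNA Control and to 851 to 1261 CPM with shRNA mCsnk2a1, and their part in the level of Rlbp1 was not tested. Rdh10 averaged 7.55 ± 8.76 CPM with pcDNA4c Control and 46.8 ± 17.5 CPM with pcDNA4c mCsnk2a1, a log2 difference of 2.63 (SE 1.17, adjusted p in edgeR 0.568).

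Of 16 genes for retinoic acid synthesis, carriage, breakdown and reception, 11 were tested, with 8 above 0 with knockdown (median 0.97) and 4 with overexpression (median -0.89); 0 passed in edgeR, and 0 and 1 had an unadjusted p under 0.05 (8.33% and 8.72% of all genes). The highest were the fatty acid and retinoic acid carrier Fabp5 (64.1 CPM) and the receptors Rxra (45.5 CPM) and Rara (31 CPM), with knockdown differences of 0.27, 1.36 and 0.97 and overexpression differences of -0.89, 1.18 and 0.59. Of 17 other retinoid dehydrogenases and relatives, 11 were tested, with 4 above 0 with knockdown (median -1.10) and 5 with overexpression (median -1.11); 0 passed in edgeR, and 0 and 1 had an unadjusted p under 0.05 (8.33% and 8.72% of all genes). The highest were Dhrs7 (29.9 CPM), Rdh13 (23.3 CPM) and Rdh1 (21.3 CPM).

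The genes most like each member across the 12 libraries, by Pearson correlation of log2(CPM + 1) among 12867 genes with a count in at least 10 libraries, are given as a description, and Retsat was detected too rarely to enter. For Rbp3 they were Rraga (r = 0.92), Prrc2b (0.90) and Eef2 (0.90). For Rdh12 they were Syap1 (0.82), Ascc1 (0.82) and Snhg20 (0.80), the lowest values of the 6 members compared. Rdh8 was nearest to Dnm2 (0.90), Lama1 (0.90) and Nsmce4a (0.85), and Rdh11 to Dgki (0.88), Ccdc9 (0.87) and Sdhb (0.86). Abca4 was nearest to Piezo2 (0.90), Ptdss2 (0.88) and Serpinb8 (0.88), and Dhrs3 to Doc2b (0.91), Gm39329 (0.89) and Vti1b (0.89). None of the 7 genes was among the 3 nearest of another, and none of the 19 phototransduction genes was among those named.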

How the data were processed

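The submitters' processing notes name kallisto 0.45.0 and edgeR 3.28, with mm10 as the build, without settings or an annotation release. Gene values are estimated counts as deposited, and 100% of those above 0 are not whole. The deposited transcript table is titled as counts, but its columns sum to the total of TPM, and TPM is the unit used here. The third deposited table holds a scaled CPM signal for 11 libraries and has no column for pcDNA4c mCsnk2a1 1. In each of the 11 the signal is a constant multiple of the gene table. The scaled table served only for gene names and positions. For the 4 retinoid cycle genes above 0 in all libraries, each deposited count equalled the summed TPM of the gene times a gene constant and a library constant, within 0.125%. A short transcript with a high TPM therefore weighs on the deposited count of its gene like a long one. Positions matched GENCODE M21 (GRCm38) for all 7 genes, and 97.9% of transcripts were found there.

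Counts were rounded and tested in R 4.3.3 with edgeR 4.0.16 (filterByExpr with a minimum count of 10, TMM, quasi-likelihood F test, 4 groups and 12 libraries in 1 fit, Benjamini-Hochberg adjustment over 20267 genes, threshold 0.05). The SE is the size of the log2 difference divided by the root of F, and the 95% intervals use it. Alternatives used DESeq2 1.42.0, limma 3.58.1, other scalings and filters, and fewer libraries. Fits were tested on simulated counts that varied less than these data, whose common biological coefficient of variation was 1.26. That test therefore cannot give the power or error rate here. For single values, exact permutation tests (two-sided) were run on log2(CPM + 1) or log2(TPM + 1). Depth limits cover counting error only, since copies made by PCR are not independent molecules. The genes, lists, tests and the rule for named genes (all 7 members; of other lists those that passed, otherwise the 3 with the highest mean CPM; the 3 nearest genes of each member) were chosen with earlier results of these data known, and the RLE, library-size and TPM scales of the permutation tests were added after the values were seen. A gene that the rule names is not reported here.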

Additional observations from a re-analysis of the deposited data

How the results depend on the processing

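None of the 7 genes passed the threshold in any of the 4 comparisons under any alternative run: RLE size factors, library size alone, no filter, at least 50 counts in 3 libraries, DESeq2, limma voom, only the libraries of the comparison, the replicate block, and leaving out each library. The direction of 396 gene estimates was kept and that of 26 turned. With limma voom the Abca4 knockdown difference was 0.17 and the overexpression effect minus the knockdown effect of Rdh11 was -0.34, and with RLE size factors and with DESeq2 the Rbp3 difference between controls was 0.033. Leaving out 1 library gave knockdown differences of -0.71 to 0.92 for Abca4, -0.30 to 0.14 for Rbp3 and -0.012 to 7.10 for Retsat, and an overexpression difference of -0.56 to 0.69 for Rdh8. Differences between controls then ran from -1.61 to 1.45 for Rdh11, -1.61 to 0.022 for Abca4 and -0.28 to 0.12 for Rbp3, and the overexpression effect minus the knockdown effect from -0.59 to 0.11 for Rdh12, -1.07 to 1.99 for Rdh11 and -1.48 to 0.15 for Abca4. The cause was not tested. The Dhrs3 knockdown difference stayed at 1.54 to 3.6 over all alternatives (adjusted p 0.487 to 0.997) and the Rbp3 overexpression difference at 0.67 to 1.11 (adjusted p 0.242 to 0.746). The filter of 50 counts left Retsat untested, as did the overexpression fit with only the libraries of the comparison. That last setting was not run for the overexpression effect minus the knockdown effect. Replicate numbers are shared between groups, but the deviations of same-numbered libraries correlated at -0.0398 to 0.00873, so the numbers were not taken as pairs, and with the replicate block 0 of 7 genes passed, with 1 call among all genes in the knockdown comparison. The common biological coefficient of variation of 1.26 and libraries of 50 to 100 cells limit what 3 libraries a group can resolve.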
